A study of Mus musculus with 8 samples.

Results

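Connecting tubule cells are described here in mouse whole-kidney single-cell RNA sequencing, as the cells that the authors assigned to their class CNT. The class holds 1990 of the 77393 cells, and all 1990 have a position in the authors' UMAP embedding (a planar map of cells by similarity of expression) of the 25200 cells outside the proximal tubule class. The 2 groups of C57BL/6 mice, aged 7 weeks, were 6 samples titled Control, and 2 samples titled UUO, which stands for unilateral ureteric obstruction. In that operation the left ureter is tied, and animals were killed on day 7. The labels give the same treatment text for both groups, so what was done to Control animals is not known here, and no label says whether samples came from separate animals. The p-values therefore reflect how far these samples vary, and that variation could be technical.

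The connecting tubule is the segment that joins the distal convoluted tubule (DCT) to the collecting duct, whose principal cells form the class CD PC. Its cells take up sodium and secrete potassium under the control of aldosterone. They also carry calcium across the epithelium: calbindin, encoded by Calb1, ferries calcium through the cell, and the sodium-calcium exchanger encoded by Slc8a1 passes it on towards the blood. In obstruction, urine backs up into these distal segments and the collecting duct. Calb1 and Slc8a1 are the usual markers, but gene-level counts were not analysed here. The class name could therefore not be checked against them, and every result below concerns cell numbers, transcript totals and positions.

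Total depth ran from 2263 to 18393 cells and from 4375942 to 56755823 UMIs (unique transcript molecules) per sample. Controls 5 and 6 and both UUO samples were libraries of over 10000 cells, and no UUO sample was among the smaller ones. Cell numbers per class in Controls 3 and 4 differed by no more than sampling noise, though narrowly (chi-square p = 0.0509), so the pair was counted as 1 sample. That leaves 5 Control and 2 UUO samples. An exact permutation test of 2 samples among 7 has 21 arrangements and cannot go below p = 0.0476. Among CNT cells, 2 barcodes occurred in more than 1 library, and 0 of them had equal UMIs and genes in both.

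CNT cells were scarce in both UUO samples, as a share of all cells and of tubular cells outside the proximal tubule class, but not clearly so beside the adjoining distal classes. Controls 1 to 6 held 165, 251, 129, 234, 673 and 412 CNT cells, whereas UUO 1 held 24 of 18393 cells and UUO 2 held 102 of 12930. As a share of all cells this was 3.02% in the lowest Control sample (Control 6) and 5.84% in the highest (Controls 3 and 4 pooled), against 0.130% (exact 95% binomial interval 0.0836 to 0.194) in UUO 1 and 0.789% (0.644 to 0.957) in UUO 2. The groups did not overlap, and the UUO samples also differed from each other beyond counting error, which is all that these intervals cover. Control samples averaged 4.30% ± 1.03 (SD, n = 5) and UUO samples 0.460% ± 0.466 (SD, n = 2), a 9.36-fold difference of means. CNT cells likewise supplied 3.82% ± 0.952 of all UMIs in Control and 0.497% ± 0.503 in UUO. These are shares of the cells recovered, so fewer CNT cells in the tissue, poorer recovery of them and more cells of other classes cannot be told apart.

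The share of all cells fell by 3.75 on the log2 odds scale (95% interval -5.42 to -2.09, limma with Benjamini-Hochberg adjusted p = 0.000478 over 28 classes, exact permutation p = 0.0476). Of the 28 classes, 8 were called lower in this fit, 28.6%, and 50% in either direction. CNT had the lowest estimate, followed by CD PC at -3.52 and the base-secreting B-IC at -3.39. The intervals of these 3 classes overlap widely. Each class has the same standard error in that fit, so the interval does not measure the spread of CNT alone. Without UUO 1 the CNT difference was -2.46 and missed the threshold (limma adjusted p = 0.0632), and among the libraries of over 10000 cells alone it was -3.49 (limma adjusted p = 0.00178).

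**Figure D1:**
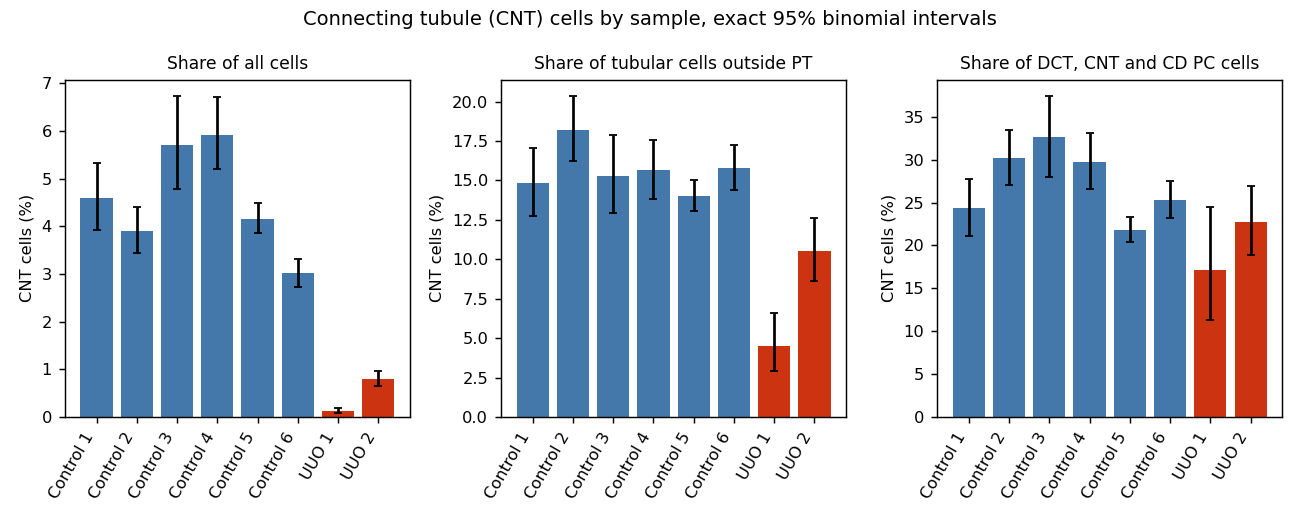
Bars give CNT cells as a percentage of all cells, of tubular cells outside the class PT, and of DCT, CNT and CD PC cells together, in each of the 8 samples, with exact 95% binomial intervals for counting error. UUO samples lie below every Control sample in the left and middle panels, while UUO 2 at 22.7% lies above Control 5 at 21.8% in the right panel.

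Because proximal tubule (PT) cells were so numerous, CNT cells were next counted among tubular cells outside PT. That count leaves out the class PT alone and keeps Prolif PT, the proliferating proximal class, and Profibrotic Tubules. There they made up 14% in Control 5, the lowest, and 18.2% in Control 2, the highest, against 4.49% (24 of 535 cells, exact 95% interval 2.90 to 6.60) in UUO 1 and 10.5% (102 of 971, 8.65 to 12.6) in UUO 2. Control samples were close together on this count and did not overlap with UUO. The mean was 15.7% ± 1.58 (SD, n = 5) in Control and 7.50% ± 4.26 (SD, n = 2) in UUO. CNT fell by 1.30 on the log2 odds scale (95% interval -2.19 to -0.42, limma adjusted p = 0.0304 over 9 classes, exact permutation p = 0.0476). Of those 9 classes, 22.2%, CNT and B-IC, were called lower and 33.3% in either direction. The remaining call was Profibrotic Tubules, higher in UUO by 3.07 (limma adjusted p = 0.0107). Its part in the lower CNT share was not tested.

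The CNT call depended on the samples and the method. Limma no longer passed without Control 1 (-1.33, adjusted p = 0.0572), Control 2 (-1.24, 0.0875), Control 6 (-1.30, 0.0673) or UUO 1 (-0.65, 0.205), nor among the libraries of over 10000 cells alone (-1.22, 0.310). With cell numbers in edgeR's quasi-likelihood test the difference was -1.05 with sample totals and -0.80 with TMM scaling, and neither passed (adjusted p = 0.0751 and 0.163).

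Counts against each single tubule class do not move with any other class, and the groups overlapped for 4 of the 9 classes. In the order of the nephron, Control samples held 0.0750 ± 0.0343 CNT cells per PT cell (SD, n = 5) and UUO samples 0.00713 ± 0.00776 (SD, n = 2), a log2 difference of -3.91. PT cells reabsorb most of the filtrate, and the ratio lay between 0.0413 and 0.130 in Control against 0.00165 and 0.0126 in UUO 1 and 2. For Profibrotic Tubules, a class named by the authors, the log2 difference was -4.02. The means were 8.51 ± 4.23 CNT cells per cell in Control and 0.664 ± 0.663 in UUO. CNT cells outnumbered Profibrotic Tubules in every Control sample, at least 4.46 to 1, against 1.13 to 1 in UUO 2. In UUO 1 they were outnumbered, at 0.195 to 1.

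The ascending loop of Henle (ALOH), which takes up salt without water, gave 0.948 ± 0.342 CNT cells per cell in Control and 0.368 ± 0.107 in UUO, with a log2 difference of -1.31. Its Control samples ran from 0.611 to 1.36, above 0.293 in UUO 1 and 0.443 in UUO 2. Intercalated cells lie scattered among CNT and principal cells and handle acid and base. CNT cells per acid-secreting A-IC cell were 3.31 ± 1.5 in Control and 0.852 ± 0.434 in UUO (-1.90). The ratio to Trans IC was 4.36 ± 1.92 in Control and 2.04 ± 0.628 in UUO (-1.02). Groups did not overlap for either class, though for Trans IC they came close, at 2.49 in UUO 2 and 2.54 in Controls 3 and 4.

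Against DCT, B-IC and CD PC the groups overlapped. CNT cells per DCT cell, the segment just upstream, were 0.433 in Control 1, 0.576 in Control 2, 0.507 in Controls 3 and 4, 0.346 in Control 5 and 0.484 in Control 6, against 0.245 in UUO 1 and 0.363 in UUO 2. Only Control 5 reached below UUO 2, and the log2 difference was -0.62 (exact permutation p = 0.0952). CNT cells per B-IC cell were tightly set in Control, from 2.40 to 2.92, and lay on both sides of that range in UUO, at 1.33 and 3.29. CNT cells per CD PC cell, the segment just downstream, were 1.33 and 1.55 in UUO, inside the Control range of 1.14 to 3.52, with a log2 difference of -0.21 (exact permutation p = 0.762). Prolif PT, the proliferating proximal class, overlapped too (-3.15), where Control 5 held 1.27 CNT cells per Prolif PT cell, the other Control samples 6.06 or more, and UUO 1 and 2 0.212 and 2.43.

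In all, the UUO samples lay below every Control sample in 5 of the 9 ratios, and groups were apart in 40% of the 45 ratios between any 2 tubule classes. After Benjamini-Hochberg adjustment over the 9 ratios 0 passed 0.05 in the exact permutation test (lowest 0.107, 4 at an unadjusted p under 0.05). Passing would have needed every ratio at 0.0476. Without UUO 2 the count was 8 of 9. Without UUO 1 the log2 difference was -2.45 for PT, -1.41 for Prolif PT, -0.35 for DCT and 0.32, the other sign, for B-IC.

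**Figure D2:**
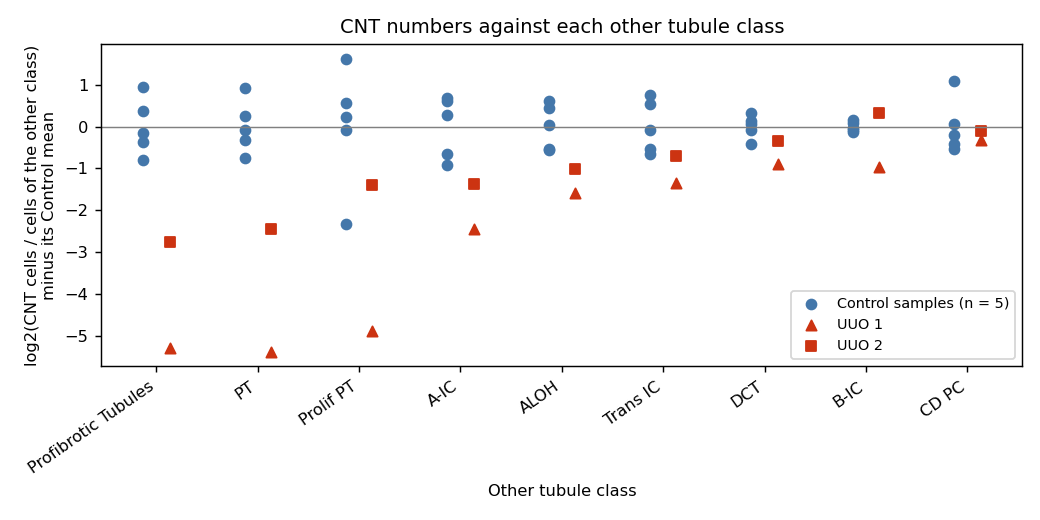
Points give the log2 ratio of CNT cells to cells of each other tubule class (0.5 added to both), minus the Control mean of that ratio, for 5 Control samples and both UUO samples. UUO points lie far below the Control points for Profibrotic Tubules and PT and within or beside them for DCT, B-IC and CD PC.

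The make-up of the distal stretch was then taken by itself. CNT cells were 26.5% ± 3.85 (SD, n = 5) of the DCT, CNT and CD PC cells together in Control and 19.9% ± 3.94 (SD, n = 2) in UUO. UUO 1, with 24 of 140 such cells, held 17.1% (exact 95% interval 11.3 to 24.4) and UUO 2, with 102 of 449, held 22.7% (18.9 to 26.9). The groups overlapped through Control 5 at 21.8%, and the log2 odds difference of -0.52 had an exact permutation p of 0.143 (0.238 adjusted over 5 single comparisons). It was -0.28 without UUO 1 and -0.77 without UUO 2. DCT cells made up 56.9% ± 4.78 of these cells in Control and 66.3% ± 5.24 in UUO, and CD PC cells 16.6% ± 5.13 and 13.8% ± 1.30.

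Transcript totals of the CNT cells in UUO samples lay inside the Control range. Median UMIs per CNT cell were 1067 in Control 1, 1255 in Control 2, 955 in Controls 3 and 4, 4137 in Control 5 and 1903 in Control 6, against 2984 in UUO 1 and 2934 in UUO 2. Control 5 stood above both UUO samples and the other Control samples below them. The UUO to Control ratio was 1.86 (95% interval 0.901 to 3.86, limma adjusted p = 0.234 over 19 classes), where 10.5% of the classes were called. Over all cells the sample medians were 2496 and 2584 UMIs in UUO against 1292 to 2944 in Control. Raw UMIs mix library depth with the RNA of a cell, and these cannot be told apart here.

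Median genes detected per CNT cell ran from 463 in Controls 3 and 4 to 1215 in Control 5, with 1311 in UUO 1 and 982 in UUO 2. The ratio was 1.77 (95% interval 1.06 to 2.98) and did not pass either (limma adjusted p = 0.135, with 5.26% of 19 classes called). With all samples the exact permutation p was 0.286 for UMIs and 0.190 for genes. Both outcomes changed without Control 5: limma then called CNT higher in UMIs (log2 difference 1.24, adjusted p = 0.00598) and in genes (1.06, adjusted p = 0.0119). With Control 5 kept, limma also called genes with means over cells (adjusted p = 0.0489) or a minimum of 10 cells per class (adjusted p = 0.0300). Among the libraries of over 10000 cells, which include Control 5, the log2 differences were 0.076 for UMIs and 0.25 for genes.

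A floor on genes per cell touched CNT cells of the smaller libraries. No cell of the table has fewer than 298 genes, and cells with under 400 genes were 31.5%, 31.9% and 35.8% of the CNT cells in Control 1, Control 2 and Controls 3 and 4. In Control 5 they were 3.86%, in Control 6 17.0%, in UUO 1 4.17% (1 of 24 cells) and in UUO 2 5.88%. DCT cells under 400 genes were 22.8%, 15.6% and 25% in those same smaller libraries. The part of this floor in the CNT medians and shares was not tested.

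**Figure D3:**
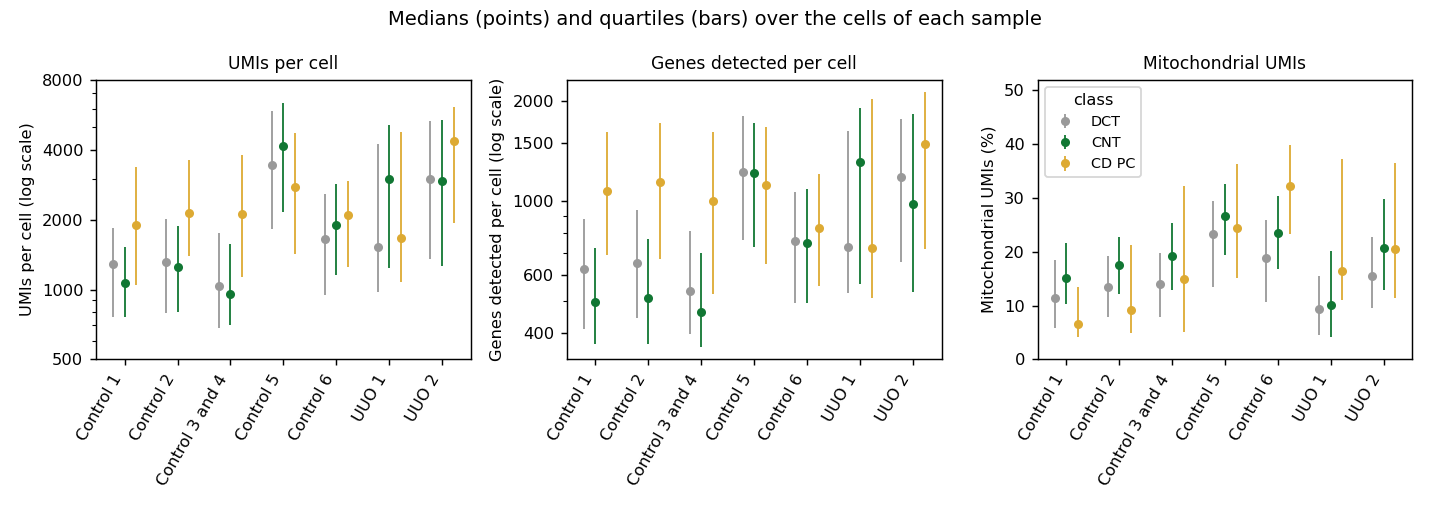
Points give the median and bars the quartiles, over the cells of a sample, of UMIs per cell, genes detected per cell (both on log axes) and the percentage of mitochondrial UMIs, for DCT, CNT and CD PC. CNT medians of genes run from 463 to 513 in the 3 leftmost samples, and CNT lies above DCT in mitochondrial percentage in all 7.

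At equal UMIs, CNT cells of both UUO samples had more genes detected than those of every Control sample, a difference that did not pass after adjustment. A line fitted to log2 genes on log2 UMIs in Control CNT cells gives 463 genes at 1000 UMIs and 1253 at 4000. Control samples lay at 1.04, 0.975, 1.06, 0.953 and 1.03 times the line (Control 1, Control 2, Controls 3 and 4, Control 5, Control 6), UUO 1 at 1.22 and UUO 2 at 1.07. UUO 2 exceeded Controls 3 and 4, the highest Control sample, by little. The log2 difference was 0.18, with an exact permutation p of 0.0476, the smallest possible, and 0.238 after adjustment over 5 single comparisons.

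Other classes did likewise: measured against their own lines, 6 of 19 classes, 31.6%, had both UUO samples above every Control sample. CNT ranked 2 by size of difference, after the regulatory T cell class Treg (0.29). Only CNT and CD4 T of these had 5 Control samples. Treg, Th17 and CD8 effector had 3 and Prolif Ly had 2, and with fewer samples groups lie apart more easily. DCT had 0.053 (exact permutation p = 0.286). Without Control 5 the CNT difference was 0.11, without UUO 1 it was 0.081, and against UMIs outside mitochondrial genes it was 0.13 (exact permutation p = 0.0952). The share of mitochondrial UMIs was lower in UUO 1 CNT cells than in any Control sample, and its part in the gene count beyond that was not tested.

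CNT cells carried a high load of mitochondrial transcripts, and the UUO samples differed from each other in it. Their median mitochondrial percentage was 15.1 in Control 1, 17.6 in Control 2, 19.2 in Controls 3 and 4, 26.7 in Control 5 and 23.5 in Control 6. In the first 3 of these CNT had the highest median of all classes with at least 10 cells (24, 22 and 23 classes) and also the lowest median number of genes. In Controls 5 and 6 it ranked 4 of 27 by mitochondrial percentage, with the neutrophil class highest in Control 5 and CD PC in Control 6. In UUO 1 it ranked 7 of 27 and in UUO 2 it ranked 2 of 28. By genes, counted from the highest, CNT ranked 8 of 27 in Control 5, 13 of 27 in Control 6, 8 of 27 in UUO 1 and 18 of 28 in UUO 2. It was thus lowest in genes only in the smaller libraries. These ranks describe classes defined from the same cells and carry no test.

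UUO 1 CNT cells had a median of 10.1% mitochondrial UMIs, below every Control sample, and UUO 2 cells 20.7%, inside the Control range. The difference of means was -5.04 percentage points (95% interval -14.7 to 4.57, limma adjusted p = 0.887, exact permutation p = 0.333). Of the 19 classes 0% were called by limma, 0 also at an unadjusted p under 0.05. Without UUO 1 the difference was 0.242. In absolute terms a CNT cell held a median of 161 to 945 mitochondrial UMIs in Control, 217 in UUO 1 and 596 in UUO 2, and 773 to 3015 other UMIs in Control, 2664 in UUO 1 and 2147 in UUO 2.

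At least 10% mitochondrial UMIs were found in 75.8% to 93.5% of CNT cells in Control, in 82.4% (84 of 102, exact 95% interval 73.6 to 89.2) in UUO 2 and in 54.2% (13 of 24, 32.8 to 74.4) in UUO 1. At least 30% were found in 37.0% of CNT cells in Control 5 and 27.2% in Control 6, in 3.19% to 9.09% in the other Control samples, in 24.5% in UUO 2 and in 1 of 24 cells in UUO 1. UUO 1 was below every Control sample at 10% but not at 30%, and UUO 2 was inside the Control range at both. The log2 odds difference at 10% was -1.66 (exact permutation p = 0.143, adjusted 0.238). It was -0.68 without UUO 1, -2.64 without UUO 2 and -0.56 at a threshold of 20%.

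CNT was compared with the adjoining segments within each library, which need not remove its depth. The floor on genes touched the classes unequally: in Controls 3 and 4, cells under 400 genes were 35.8% of CNT, 25% of DCT and 13.6% of CD PC cells. CNT exceeded DCT in median mitochondrial percentage in all 7 samples, by 3.47 to 5.16 points in Control, by 0.670 in UUO 1 and by 5.07 in UUO 2. The ratio of CNT to DCT median UMIs was 0.828, 0.960 and 0.922 in Control 1, Control 2 and Controls 3 and 4. In the large libraries it was 1.20 in Control 5, 1.15 in Control 6, 0.982 in UUO 2 and 1.96 in UUO 1. UUO 1 alone stood out on both, with 24 CNT and 98 DCT cells behind its values. CD PC, of which UUO 1 held 18 cells, gave no steadier contrast: CNT exceeded it in mitochondrial percentage by 8.41 points in Control 1 and fell below it by 8.69 in Control 6.

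Tested as a change in the CNT to neighbour contrast, 0 of 6 comparisons passed (exact permutation, 0 at an unadjusted p under 0.05, adjusted p = 0.381 for each). The log2 differences against DCT were 0.47 for UMIs and 0.47 for genes, and against CD PC 0.62 and 0.82. Without UUO 1 those against DCT had the other sign (-0.031 and -0.087), as had that against CD PC in UMIs (-0.11). For the mitochondrial percentage the changes were -1.36 points against DCT and -6.04 against CD PC, and without UUO 1 they were 0.843 and -2.83. The difference in genes against CD PC was then 0.084.

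In the embedding, CNT cells lay between the cells of the segments that adjoin them in the kidney. The median position of the class was 2.68 units (arbitrary) from that of DCT and 3.54 from that of CD PC, its nearest classes, and DCT and CD PC were 6.22 apart. The next class, Profibrotic Tubules, was 6.04 away. Of the 1990 CNT cells, 1306 (65.6%) had only CNT cells among their 15 nearest cells and 457 had 8 to 14. The remaining 227 cells, 11.4%, had fewer than 8, and 166 of them sat where DCT cells were the majority and 24 where CD PC cells were. By this count 88.6% of CNT cells had a majority of their own class around them, against 97.0% of DCT and 96.8% of CD PC cells, and 78.8% of Trans IC cells, the lowest among the 9 tubule classes outside PT.

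The neighbours of CNT cells in the embedding were compared next. Among the 15 nearest Control cells of other samples, CNT cells made up 85.4% to 91.8% for the Control samples, 86.5% for UUO 2 and 80.6% for UUO 1. DCT cells made up 5.53% to 12.8% for Control, 6.94% for UUO 1 and 8.17% for UUO 2. CD PC cells made up 1.03% to 2.95% for Control, 1.37% for UUO 2 and 0% for UUO 1, whose 24 cells limit that share. Cells of all other classes made up 0.0808% to 2.56% for Control, 3.99% for UUO 2 and 12.5% for UUO 1. The groups did not overlap in that remainder, which was not tested and was not computed for cells of any other class. Its UUO 1 value also rests on 24 cells, and UUO 2 lay near Control 6 at 2.56%. The differences were -4.15 percentage points for CNT, -1.39 for DCT and -1.34 for CD PC neighbours, and 0 of 3 passed (exact permutation, 0 at an unadjusted p under 0.05, lowest adjusted p = 0.357). Without UUO 1 they were -1.19, -0.774 and -0.651.

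Median positions of the groups were 0.233 units apart (exact permutation p = 0.333), against 2.68 to DCT. The distance was 0.0835 without UUO 1 and 0.508 without UUO 2. With mean in place of median positions it was 0.936 (exact permutation p = 0.0476, adjusted 0.119). The median distance of a cell from the median position of its own sample was 0.993 ± 0.0424 in Control (SD, n = 5), 0.852 in UUO 1 and 1.05 in UUO 2 (log2 difference -0.068, exact permutation p = 0.619). With the mean distance in place of the median the difference had the other sign, 0.63 (exact permutation p = 0.0476, adjusted 0.119).

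**Figure D4:**
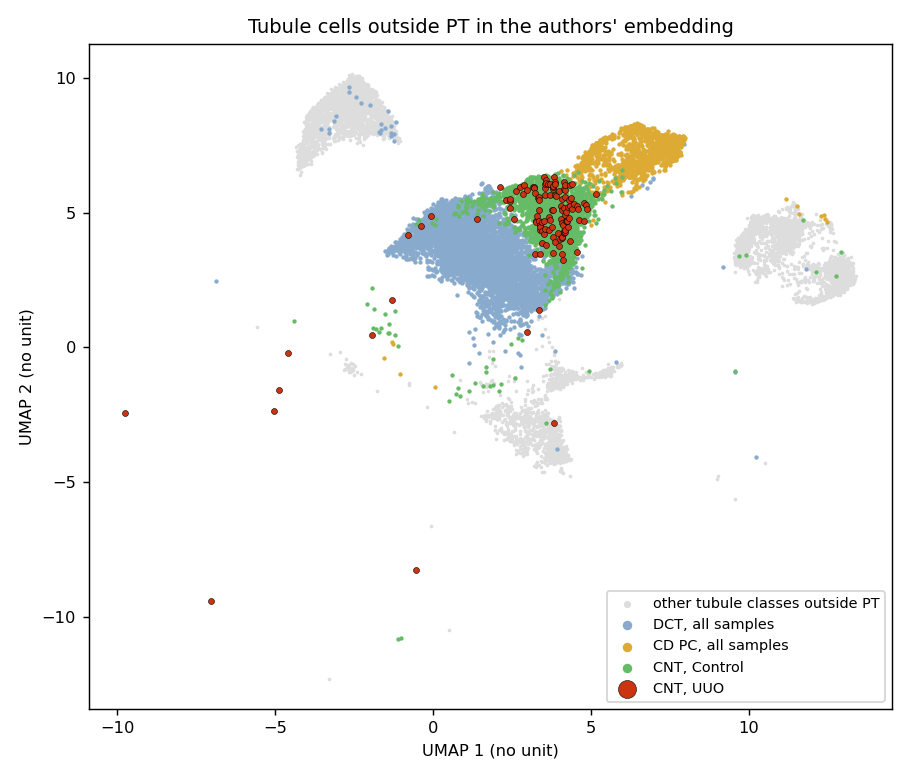
Each point is a cell of a tubule class outside PT at its embedding coordinates, which have no unit, with DCT, CD PC and CNT cells coloured and the 126 CNT cells of UUO samples in red. CNT lies between DCT and CD PC, and most UUO cells fall on the Control CNT cells, with a few scattered far from them.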

How the data were processed

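The deposited table has 1 row per cell with the authors' class and sample name. UMIs and genes per cell are raw counts, not normalized, per the file headers. The mitochondrial share is a percent of a cell's UMIs, per the file headers. The embedding coordinates are a score with no unit, made by the authors. Cell Ranger 6.0.1, Seurat 4.0.1 and mm10 are named in the submitters' processing notes; the sources used here do not give their settings, cell filters, treatment of doublets or class calling. Per-sample columns left out numbered 0.

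Members were the cells of class CNT, and groups came from sample titles. Members, classes and comparisons were chosen with earlier results of these data known. The text names CNT, DCT, CD PC and each other tubule class by its ratio to CNT; other classes were named after their values were seen. Cell numbers gave log2((n + 0.5)/(N - n + 0.5)) per sample, and sample medians gave log2 UMIs, log2 genes and mitochondrial percentage for 19 classes (a minimum of 20 cells, reached in 2 or more samples per group). Limma 3.58.1 in R 4.3.3 was fitted over all classes with Benjamini-Hochberg adjustment and a threshold of 0.05. Other values were compared by two-sided exact permutation tests over samples. Genes could not be thinned to equal UMIs from totals, so residuals from a line were used. Functions were tested on simulated data. EdgeR 4.0.16 was an alternative. A class with 0 cells in the smallest library could still make up 0.133% of it (3 cells).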

Additional observations from a re-analysis of the deposited data

Results flagged for a closer look

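In 25 sets of Control values of CNT cells (5 samples each), 2 had 1 sample far from the others by Dixon's criterion, which flags about 1 in 20 sets by chance. CNT cells per CD PC cell were 3.52 in Controls 3 and 4, against 1.14 to 1.73 in the other Control samples, and without that sample the UUO minus Control log2 difference of this ratio was 0.060 in place of -0.21. CNT cells of Control 5 had a median of 945 mitochondrial UMIs, against 161 to 368 in the other Control samples. Median UMIs of all kinds were also highest there, at 4137 per CNT cell.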

How the results depend on the processing

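Of 412 alternative values, 381 kept their direction and their side of the threshold. Many were exact permutation results that could not have passed, so their side of the threshold was fixed in advance. With any counted sample left out, too few arrangements remain for that test to pass. Its smallest possible p was 0.333 in libraries of over 10000 cells and 0.5 with sample number as a replicate block. The distance between group positions cannot change direction. The count is therefore no measure of robustness. The CNT share of all cells ran from -5.04 to -2.46 with each sample left out, the latter without UUO 1. The share of tubular cells outside PT ran from -1.95 to -0.65 and lost its call in limma at -1.22 in libraries of over 10000 cells, -1.27 in cells with at least 1000 UMIs (adjusted p = 0.0591) and in edgeR at -1.05 and -0.80 with TMM scaling. Ratios with groups apart numbered 5 to 8 with each sample left out. The ratio to CD PC ran from -0.35 to 0.060 and was 0.16 in the large libraries and 0.12 at 1000 UMIs, and that to B-IC ran from -0.98 to 0.32. CNT UMIs ran from 0.72 to 1.24 (0.76 without Control 1) and genes from 0.62 to 1.06. Genes were called with means over cells (0.65) or a minimum of 10 cells per class (0.83). The mitochondrial difference ran from -10.3 to 0.242 points. CNT minus DCT ran from -0.031 to 0.97 in UMIs, -0.087 to 1.03 in genes and -3.56 to 0.843 points. CNT minus CD PC in UMIs ran from -0.11 to 1.35, and in large libraries was -0.066, with 0.0585 points for the mitochondrial percentage. Spread ran from -0.22 to 0.083, and was 0.63 as a mean distance. DCT neighbours differed by 0.679 points at 1000 UMIs, and CNT neighbours by 1.51 among cells with own-class neighbours, an alternative chosen after seeing the data, as were UMIs outside mitochondrial genes. The cause of these changes was not tested. Depth measures gave no value for cells of at least 1000 UMIs, under 10% mitochondrial or with own-class neighbours, because UUO 1 then held under 20 CNT cells.

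Sample numbers 1 and 2 occur in both groups. Deviations from group means over classes correlated at -0.333 for number 1 and 0.0554 for number 2. With 2 UUO samples their deviations mirror each other, so these values cannot show whether samples of the same number belong together. With sample number as a replicate block the share outside PT was not called (-1.39, limma adjusted p = 0.156). Median UMIs per CNT cell were called (1.35, limma adjusted p = 0.00138), and no other call changed. Control samples with other numbers have no UUO partner, so these differences rest on Controls 1 and 2 against UUO 1 and 2. Those Controls are smaller libraries, of 3599 and 6433 cells, against 18393 and 12930 cells in UUO 1 and 2. The part of library size in the UMI call was not tested.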

Other observations

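A few CNT cells lay where immune cells were the majority of their 15 nearest cells in the embedding, a count made after the positions were seen. They were 1 of 24 CNT cells in UUO 1, 3 of 102 in UUO 2, 3 of 412 in Control 6 and 0 in the other Control samples. The groups were not compared by a test. The 4 UUO cells had 635 to 1551 UMIs and 3.19% to 7.56% mitochondrial UMIs, and the 3 Control cells 697 to 1427 UMIs and 26.0% to 33.4%. CNT and other cells outside PT were also limited to those with at least 8 of 15 nearest cells in their own class. PT cells have no position in the embedding, so all of them stayed in the total. The CNT share of all cells then fell by 3.83 on the log2 odds scale (limma adjusted p = 0.00044), close to the value with all cells.

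The mitochondrial share of CNT cells with few and with many UMIs differed in direction between samples. In Control 5 the median mitochondrial percentage was 22.5 in the cells of lowest UMIs and 31.2 in those of highest UMIs, when cells were split into 3 equal sets, and in Control 6 it was 21.5 and 27.0. In Controls 3 and 4 it was 16.3 and 21.1, and in Control 1 14.4 and 14.8. In Control 2 it was 19.5 and 13, in UUO 1 13.4 and 9.31, and in UUO 2 22.1 and 16.5. Across cells, Spearman's rho between UMIs and mitochondrial percentage ran from -0.306 in Control 2 (251 cells) to 0.394 in Control 5 (673 cells). It was -0.140 in UUO 2 (102 cells) and -0.0678 in UUO 1 (24 cells), where both measures share the cell's total.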
